A study of Mus musculus with 38 samples.

Results

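The mitochondrial ribosome is built from RNA made inside the organelle and from a large set of proteins encoded in the nucleus. The genes described here are those protein-coding mouse genes whose symbol begins with Mrpl or Mrps followed by a digit, 78 of the 22401 genes with a coding transcript in the files. By symbol they comprised 49 Mrpl and 29 Mrps genes. By the subunit the protein occupies, 51 belonged to the large subunit, 26 to the small subunit, and Mrps36, a component of the 2-oxoglutarate dehydrogenase complex, was not classed. Mrps18a and Mrps30 carry small-subunit symbols and encode large-subunit proteins.

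PL-Ribo-seq joins proximity labelling to ribosome profiling. A biotin ligase, TurboID, was expressed from a doxycycline-inducible lentivirus in primary cortical neurons of CD-1 mouse embryos, either alone (Pan-TurboID) or targeted to dendrites through elements of PSD95, a scaffold of excitatory synapses (TurboID-PSD95). Each sample pooled several culture dishes, ribosomes were stalled with cycloheximide for 2 min, biotin was given for 30 min per the labels (the study's methods name a shorter time for DHPG), and footprints were sequenced from monosomes before (input) and after (pulldown) streptavidin capture. The 38 libraries fell into 14 groups, 10 with 3 replicates and 4 with 2.

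In the KCl experiment, 24 libraries covered resting and depolarized neurons, both baits, and input and pulldown, with 3 replicates each. Depolarized neurons were silenced for 2 h with tetrodotoxin and DL-AP5 and then received 55 mM KCl for 1 h. The labels name no silencing for resting neurons. KCl and the silencing therefore cannot be told apart in what is called the KCl response below. The DHPG experiment (6 libraries) held inputs and pulldowns of TurboID-PSD95 neurons that were silenced in the same way and then exposed for 10 min to 100 µM DHPG, which activates metabotropic glutamate receptors of group I. The knockdown experiment (8 libraries, 2 replicates a group) held TurboID-PSD95 neurons treated with 20 nM siRNA against the initiation factor eIF4G2 for 72 h, at rest or after the same KCl treatment. All 14 groups shared the lentiviral ligase, cycloheximide and biotin. The labels do not say whether replicates came from separate litters, so p-values measure the spread between these libraries. Libraries with non-targeting siRNA were not analysed here.

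Mitochondrial ribosomal proteins are translated by cytosolic ribosomes as precursors, imported into the matrix and assembled there on mitochondrial rRNA. The finished ribosome makes the 13 proteins of the mitochondrial genome, all of them subunits of the respiratory chain and ATP synthase. Some of its proteins descend from bacterial ribosomal proteins and others were added in the mitochondrial lineage. Neurons carry mitochondria into dendrites and axons, and mRNAs of many nuclear-encoded mitochondrial proteins are translated near the organelle. A footprint count follows the amount of an mRNA and the ribosomes on it together, and no mRNA measurement entered these comparisons.

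Promoters of nuclear genes for mitochondrial proteins are known for sites of the nuclear respiratory factors NRF1 and NRF2 (GABP, an ETS-family factor), so their core letters were searched in RefSeq windows from 250 bases before to 50 bases after each gene start (GRCm38.p6, both strands). Windows were held for 69 of the 78 genes. The NRF1-type core CGCNTGCG stood in 20 of the 69 (29.0%), against 9.2% of 27025 genes and 19.8% of the 10038 of these that were tested in the KCl experiment. The ETS-type core TTCCGG stood in 40 of the 69 (58.0%), against 16.7% and 30.6%. The windows below are shown because these genes recur in the comparisons that follow, and capitals mark the core or its reverse complement.
Mrpl12, NRF1-type, chr11:120484547-120484574, plus strand: attgtctccgCGCCTGCGcgtcgcaccg
Mrps9, NRF1-type, chr1:42851219-42851246, plus strand: gggaggtctgCGCCTGCGcagtctccag
Mrps27, NRF1-type, chr13:99344625-99344652, plus strand: acgcggcaccCGCAGGCGttccaggggc
Mrps14, ETS-type, chr1:160195210-160195237, plus strand: acagaacctgtTTCCGGtgttgtactgc
Mrpl34, ETS-type, chr8:71464878-71464905, plus strand: aactacagctcCCGGAAggccccgcggc
Mrpl17, ETS-type, chr7:105811308-105811335, minus strand: gcatgctccgcCCGGAAggcgcctcctc

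After KCl, the median log2 fold change in the inputs was 0.37 for the 20 genes with the NRF1-type core and 0.31 for the 49 without it. With and without the ETS-type core the medians were 0.33 (40 genes) and 0.35 (29 genes). In the resting dendritic ratio, described further on, the medians with and without the NRF1-type core were -0.89 and -0.89, and with and without the ETS-type core -0.91 and -0.52. The differences between these medians were not tested. In the same windows an NFY-type core, GATTGG, stood in 18.8% of the 69 genes and 24.2% of tested genes, and an SP1-type core, GGCGGG, in 60.9% and 69.5%. A match is a run of letters and not a measured binding site.

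Total aligned reads per library, as the file headers give them, ranged from 5906281 to 35643247, and the counts within coding sequences (CDSs), taken from each gene's longest transcript, from 2048604 to 14646402. Eif4g2, the knockdown target, was lower in resting knockdown inputs than in resting TurboID-PSD95 inputs, at -0.98 ± 0.19 on the log2 scale (SE, edgeR adjusted p = 0.0038), a comparison across separate experiments. Dlg4, which encodes PSD95 and whose sequence the bait shares, stood 4.47 ± 0.52 higher on the log2 scale in the resting TurboID-PSD95 pulldown than in the inputs. The 10 neuronal markers summed to between 5867 and 11850 CPM (counts scaled to a fixed library total) in the 38 libraries, the 7 astrocyte markers to 93.0 to 936 CPM, the 8 oligodendrocyte-lineage markers to 27.4 to 551 CPM and the 8 microglial markers to 12.4 to 111 CPM. All defining markers of neurons were detected. Of 34 pairs of replicates of a group none agreed within sampling noise.

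All 78 genes passed the filter on low counts in the CDS comparisons. Their CDSs were short, between 20 and 1329 nt with a median of 577.5 nt, whereas the 13019 genes tested in the KCl experiment had a median of 1389 nt. In all, 66 of the 78 lay under 1000 nt, and 52.3% of tested genes had a CDS longer than the longest of them. The median 5′ UTR was 91.5 nt, against 190.0 nt over tested genes. The CDS of the longest Mrpl30 transcript is annotated over 20 nt only (chr1:37893965-37893984, plus strand, atggctggggttctgcgctc), so its density cannot be compared with that of other genes, and the length comparisons leave it out and hold 77 genes. Mrps6 shares coding sequence with Gm49711 on the same strand and Mrpl9 overlaps Oaz3 on the other strand, and their counts are uncertain to that extent. For 12 genes another transcript than the longest had the highest count, and for 4 (Mrpl20, Mrpl33, Mrps34 and Mrpl42) the longest is annotated as subject to nonsense-mediated decay.

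Footprint density, in CPM per kb of CDS, spread widely among the genes in the 6 resting inputs. The median over the genes was 61.2 CPM per kb, against 17.5 CPM per kb over all tested genes. Behind Mrpl30, the densest were Mrpl20, a large-subunit protein with a bacterial counterpart, at 420 ± 49.4 CPM per kb (SD, n = 6), Mrpl12, the stalk protein that recruits translation factors, at 304 ± 40.1 CPM per kb, Mrpl34 at 271 ± 35.7 CPM per kb and Mrpl17 at 218 ± 11.6 CPM per kb. The sparsest were Mrps10 (17.8 ± 3.86 CPM per kb), Mrpl51 (11.2 ± 4.13 CPM per kb) and Mrpl42 (10.8 ± 7.00 CPM per kb). For Mrps10 and Mrpl42 the longest transcript was not the one with the highest count, so these low densities are those of that transcript. Only 5 of the 77 neighbouring pairs in this order lay further apart than the larger of their SDs, and the other neighbours did not differ beyond their spread. Mrps12, a protein of the decoding centre, stood at 97.9 ± 10.2 CPM per kb and Mrpl58, a peptide-release factor built into the large subunit, at 83.8 ± 7.45 CPM per kb. The proteins of one ribosome were thus covered with footprints at densities that differed severalfold, also between genes of one subunit.

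**Figure D1:**
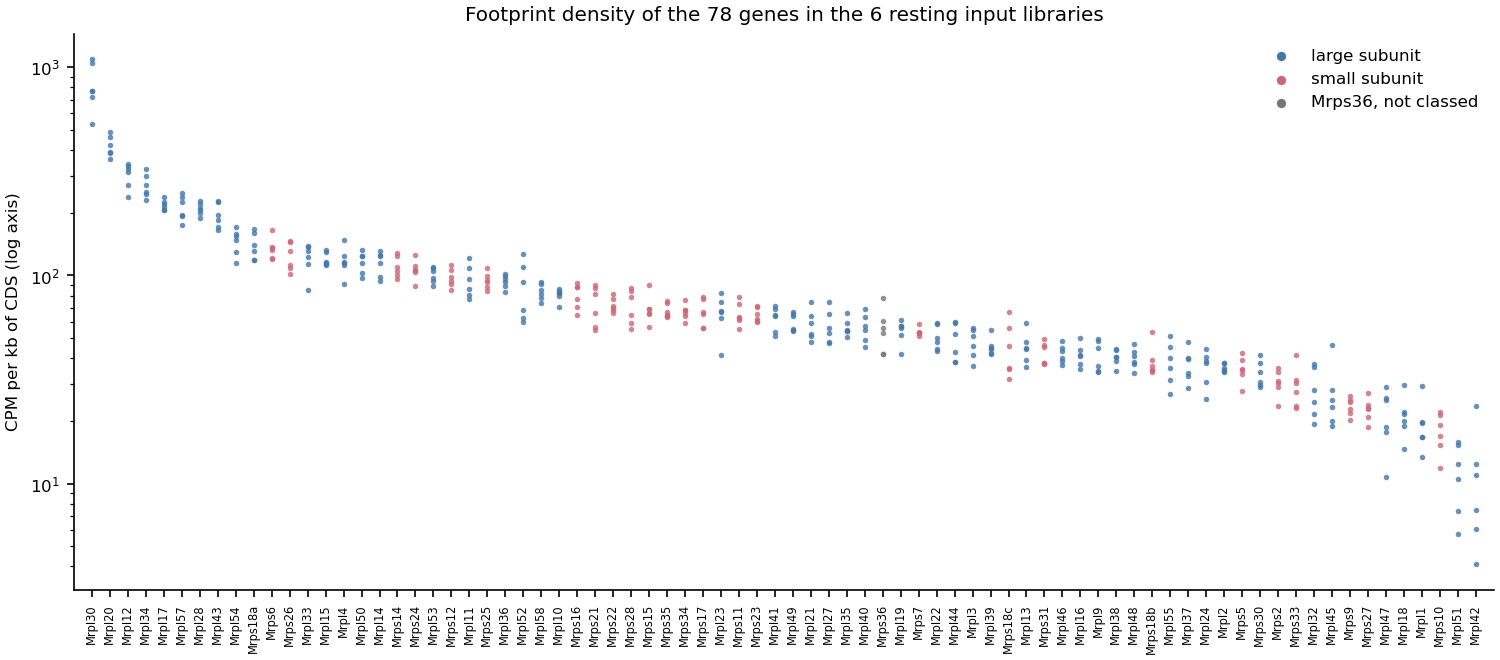
Footprint density of the 78 genes in CPM per kb of CDS (log axis), with 1 point for each of the 6 resting input libraries and genes ordered by their mean. Mrpl20, Mrpl12 and Mrpl34 stand at the top behind Mrpl30, whose annotated CDS is 20 nt long, and Mrpl42 at the bottom, while most neighbours overlap.

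Together the genes held a small and reproducible share of CDS counts at rest. The share was 0.384%, 0.401% and 0.390% in the 3 TurboID-PSD95 inputs and 0.372%, 0.382% and 0.383% in the 3 Pan-TurboID inputs. In the pulldowns it was 0.233%, 0.232% and 0.224% with TurboID-PSD95 and 0.239%, 0.248% and 0.237% with Pan-TurboID. Every resting pulldown lay below every resting input with both baits.

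After KCl the shares were higher in most libraries and scattered more. The TurboID-PSD95 inputs held 0.440%, 0.543% and 0.519%, all above the resting inputs. The Pan-TurboID inputs held 0.313%, 0.455% and 0.545%, of which replicate 1 lay below every resting input. The depolarized TurboID-PSD95 pulldowns held 0.234%, 0.404% and 0.314%, and the Pan-TurboID pulldowns 0.216%, 0.310% and 0.382%, where replicate 1 lay next to the resting pulldowns with TurboID-PSD95 and below them with Pan-TurboID. In libraries of whole cultures, more cells of a type and more RNA per cell cannot be told apart.

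The lowest shares were those of the DHPG pulldowns (0.165%, 0.167% and 0.173%), beside DHPG inputs of 0.334%, 0.328% and 0.332%. Knockdown inputs held 0.322% and 0.314% at rest and 0.396% and 0.429% after KCl, and knockdown pulldowns 0.197% and 0.190% at rest and 0.215% and 0.221% after KCl. In the DHPG and knockdown experiments every pulldown lay below every input of its condition. Other genes of this size class fell in the pulldowns too: the 12740 other genes with a CDS of 192 to 1329 nt took 33.4% to 36.0% of CDS counts in the resting inputs and 25.7% to 26.9% in the resting pulldowns.

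Set per 1000 counts on those other genes, the mitochondrial ribosomal protein genes held 10.7 to 11.4 counts in the 6 resting inputs and 8.58 to 9.50 in the 6 resting pulldowns. The DHPG libraries held 9.31 to 9.47 in the inputs and 7.56 to 7.78 in the pulldowns. The knockdown libraries held 9.22 to 9.48 in the resting inputs, 7.83 to 8.24 in the resting pulldowns, 10.5 to 11.2 in the depolarized inputs and 8.68 to 9.04 in the depolarized pulldowns. The ranges of input and pulldown did not overlap in any of these pairs, nor after KCl without knockdown in the TurboID-PSD95 libraries (means of 12.4 and 10.2, n = 3 each). They did overlap in the depolarized Pan-TurboID libraries, with 9.61 to 13.1 counts in the inputs and 8.55 to 11.8 in the pulldowns. The size class is broad and not matched to the length of each gene. Against genes within 10% of their CDS length, the median log2 difference was -0.08 and -0.07 with TurboID-PSD95 at rest and after KCl. It was -0.05 in the DHPG libraries and 0.03 and 0.07 in the resting and depolarized knockdown libraries.

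**Figure D2:**
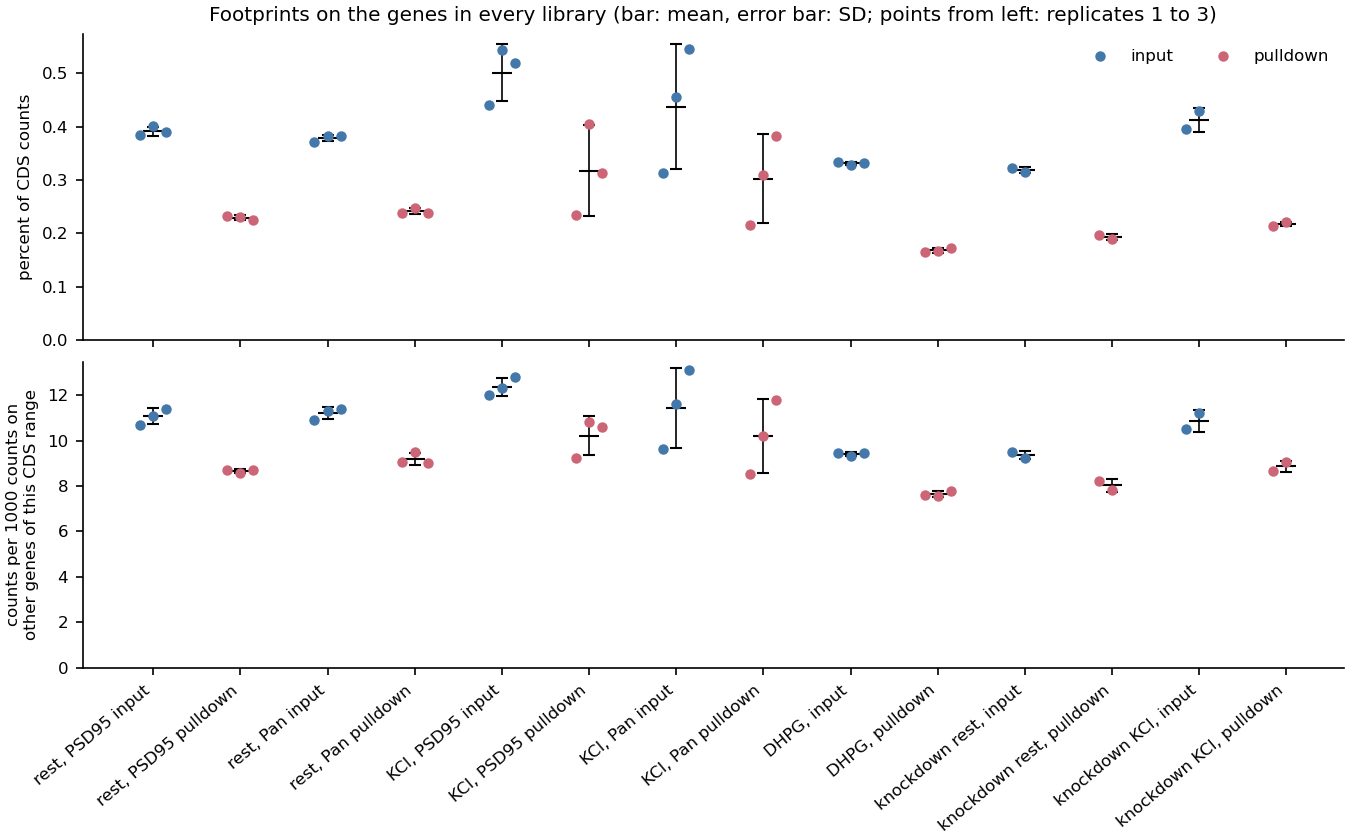
Footprints on the 78 genes in every library, as a percent of CDS counts (top) and per 1000 counts on other genes with a CDS of 192 to 1329 nt, without Mrpl30 (bottom). Points are replicates, black bars the mean and error bars the SD. The mean of the pulldowns (red) lies below that of the inputs (blue) in each condition and bait, and in the top panel the depolarized groups of the KCl experiment scatter most.

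Dendritic translation was taken as the TurboID-PSD95 pulldown over the mean of the TurboID-PSD95 and Pan-TurboID inputs. At rest, 42 of the 78 genes were lower in the pulldown at a Benjamini-Hochberg false discovery rate of 0.05 and none was higher, where 16.4% of all 13019 genes tested were lower. The median log2 fold change was -0.89 over the genes and -0.04 over all tested genes. Large-subunit proteins with bacterial counterparts fell in 15 of 30 genes, large-subunit additions in 10 of 21, small-subunit proteins with bacterial counterparts in 9 of 17 and small-subunit additions in 8 of 9. Within replicates 1, 2 and 3 the median was -0.71, -0.70 and -0.86.

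The smallest p-value was that of Mrps6 (chr16:92058436-92111925), a small-subunit protein with a bacterial counterpart. Its level was 45.9, 62.2 and 45.4 CPM in the TurboID-PSD95 inputs, 51.4, 50.1 and 52.0 CPM in the Pan-TurboID inputs and 27.0, 20.9 and 18.5 CPM in the TurboID-PSD95 pulldowns. All 3 pulldowns lay below all 6 inputs, and the log2 fold change was -1.25 ± 0.21 (SE, edgeR adjusted p = 5.6e-04). Mrps22 (chr9:98588831-98601644), a small-subunit addition, read 74.1, 87.9 and 83.3 CPM and 71.5, 75.5 and 77.1 CPM in the inputs and 39.4, 43.1 and 37.4 CPM in the pulldowns. That was -1.02 ± 0.20 on the log2 scale (adjusted p = 0.0011), without overlap.

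Mrps18b (chr17:35910667-35916363), one of 3 mitochondrial relatives of bacterial ribosomal protein S18, read 26.2 to 40.9 CPM in the 6 inputs and 9.84, 12.9 and 7.29 CPM in the pulldowns, a log2 fold change of -1.59 ± 0.32 (edgeR adjusted p = 0.0015). Mrpl21, a large-subunit protein with a bacterial counterpart, fell by 1.20 on the log2 scale (SE 0.26, adjusted p = 0.0019) and Mrps25, a small-subunit addition, by 1.21 (SE 0.26, adjusted p = 0.0019). Mrpl12, with 145 to 207 CPM in the 6 inputs and 70.4, 87.4 and 63.7 CPM in the pulldowns, fell by 1.37 (SE 0.30, adjusted p = 0.0024). Mrps12 and Mrpl58 were lower as well, by -1.11 ± 0.30 and -0.92 ± 0.26 on the log2 scale (adjusted p = 0.0083 and 0.010). Among longer genes, Mrps27, Mrps9 and Mrps2, chosen after their values were seen, had positive estimates of 0.36 ± 0.22, 0.35 ± 0.20 and 0.49 ± 0.25 on the log2 scale that did not pass (adjusted p = 0.23, 0.18 and 0.13). Leaving out the replicate 3 libraries of the KCl experiment left 0 of the 78 genes and 0.121% of all genes called, and leaving out replicate 2 left 22.

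Pulldown over input followed CDS length. Over the 77 genes, Pearson's r between the log2 fold change and log2 CDS length was 0.58 at rest with TurboID-PSD95 and 0.63 with Pan-TurboID, where the points share libraries and are no replicates of a condition. Under 500 nt, 19 of 27 genes were lower and so were 47.7% of the 1364 other genes of that length. Between 500 and 800 nt, 15 of 29 were lower, against 29.6% of 1678 others. Over 800 nt, 7 of 21 were lower, against 15.2% of the 3088 others up to 1329 nt.

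Against all other tested genes with a CDS within 10% of its own length (83 to 1466 genes), a mitochondrial ribosomal protein gene differed little at the median. The median of the neighbours' medians was -0.67 on the log2 scale, and the genes lay a median of 0.08 below their neighbours, 48 of 77 below and 29 above. When a smooth trend on CDS length was removed within each library, 9 genes remained lower, 2 became higher and the median moved to -0.19, where 9.09% of all tested genes were lower and 9.27% higher. Mrps18b kept -1.19 (adjusted p = 0.0032), Mrps22 -0.89 (adjusted p = 0.0019), Mrps35 -0.85 (adjusted p = 0.0088) and Mrpl12 -0.78 (adjusted p = 0.0086) in that edgeR fit. Mrps6 moved to -0.37 (adjusted p = 0.30) and was no longer called. Mrps2 became higher there, at 0.80 (adjusted p = 0.036).

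**Figure D3:**
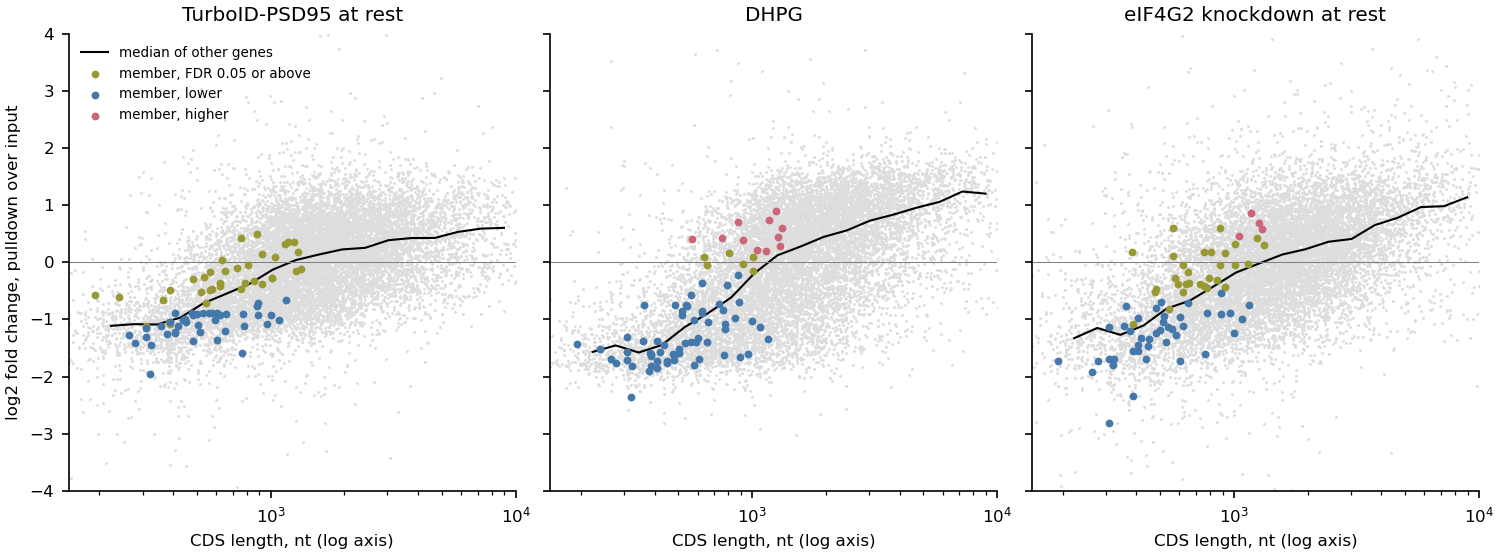
Log2 fold change of pulldown over input against CDS length in nt (log axis) at rest, after DHPG and after eIF4G2 knockdown. Grey points are other tested genes, the black line their running median, and coloured points the 77 genes by their call. The genes follow the line, low at the short end and near or above 0 at the long end.

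The pulldown with the unlocalized ligase asked whether the loss belonged to the dendritic bait. Over its own input at rest, the Pan-TurboID pulldown was lower for 16 of the 78 genes and higher for none, where 5.05% of all tested genes were lower. The median was -0.61 on the log2 scale, and 36 genes lay above and 41 below their neighbours of equal length (median difference -0.05). Mrps6 read 51.4, 50.1 and 52.0 CPM in the inputs and 28.6, 17.8 and 29.3 CPM in the pulldowns, a log2 fold change of -1.05 ± 0.23 (edgeR adjusted p = 0.019). Mrpl53, a large-subunit addition, read 33.5, 39.2 and 37.6 CPM and then 15.8, 9.73 and 16.1 CPM, a log2 fold change of -1.43 ± 0.34 (adjusted p = 0.021). Neither gene's inputs and pulldowns overlapped. Mrps18a, Mrpl20 and Mrps26 were also lower, with log2 fold changes of -0.98, -0.96 and -0.93. With replicate numbers as a block, which the libraries of a condition shared, 38 genes were lower. Without replicate 2, and without replicate 3, none was. Here and elsewhere, shares of all tested genes are not given for the block or for most fits without a replicate. Such counts therefore do not set these genes apart from others. Removing the length trend also left none, where 1.34% of all tested genes were called. Between these inputs and pulldowns, neuronal markers summed to 8094 to 8817 and then 8889 to 9671 CPM and microglial markers to at most 22.3 and then at least 24.3 CPM, and their part was not tested.

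The difference between the baits, over both conditions, was tested as an interaction. It passed for 0 of the 78 genes by edgeR's quasi-likelihood test, for 0 by the likelihood ratio test and for 0 by DESeq2. Of all tested genes 0.00768% passed by edgeR, a single gene. That gene was Dlg4, whose sequence the bait shares (4.17 ± 0.64 on the log2 scale, edgeR adjusted p = 0.041). At an unadjusted p under 0.05 stood 1 gene of the 78, beside 1.3% of all tested genes. It was Mrps31, a small-subunit addition, at -0.55 ± 0.25 on the log2 scale (edgeR adjusted p = 1.0). The median was -0.11, and 51 of 77 genes lay below their length neighbours by a median of 0.08. A test that calls 1 gene in all does not show that the baits captured these mRNAs alike.

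After KCl the dendritic ratio was lower for 18 of the 78 genes and higher for none, where 6.84% of tested genes were lower. The median was -0.55 on the log2 scale, and -0.78, -0.26 and -0.77 in replicates 1, 2 and 3. Mrps22 read 103, 107 and 119 CPM and 92.5, 96.5 and 124 CPM in the inputs and 44.3, 71.7 and 64.8 CPM in the pulldowns, a log2 fold change of -0.82 ± 0.19 (edgeR adjusted p = 0.0068). Its pulldowns lay below all 6 inputs. Mrps35, Mrps23 and Mrps24, all of the small subunit, and Mrpl53 followed, at -0.98, -0.92, -1.05 and -1.18 on the log2 scale. With the replicate block 36 genes were lower, without replicate 1 there were 9 and without replicate 3 there were 0, with no share of all tested genes beside these counts. Once the length trend was removed, 3 were left, where 3.83% of all tested genes were lower.

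The depolarized Pan-TurboID pulldown was lower than its input for 6 of the 78 genes and higher for none, where 3.64% of tested genes were lower. Mrps25 (log2 fold change -1.08 ± 0.28, edgeR adjusted p = 0.026), Mrps6 (-0.87 ± 0.23, adjusted p = 0.028), Mrpl21, Mrps14 and Mrps22 had the smallest p-values. The median was -0.53 on the log2 scale and the median difference from length neighbours 0.01. The replicate block gave 34 genes, leaving out any replicate number gave 0, and so did removing the length trend, where 1.48% of all tested genes were called. The change of the dendritic ratio with KCl was itself tested. It passed for 0 of the 78 genes and 0% of all tested genes by edgeR, for 0 by the likelihood ratio test and for 0 by DESeq2. At an unadjusted p under 0.05 stood 2 of the 78, beside 2.63% of all tested genes. Mrps6 had the smallest p-value, with a log2 difference of 0.73 ± 0.29 (adjusted p = 1.00).

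The DHPG pulldown had the most calls of the 7 comparisons of pulldown with input. The experiment held no untreated neurons. Values given below as after DHPG therefore set the pulldown against its own input and do not measure a response to DHPG. The pulldown was lower than the input for 61 of the 78 genes and higher for 11, where 39.3% of the 12273 tested genes were lower and 40.5% higher. The median was -1.24 on the log2 scale, against 0.05 over all tested genes, and -1.25, -1.08 and -0.99 in replicates 1, 2 and 3. All 27 genes under 500 nt were lower, as were 89.5% of 1256 other genes of that length. Of the 21 genes over 800 nt, 8 were lower and 9 higher, against 42.7% and 29.6% of 2909 others up to 1329 nt. From inputs to pulldowns, astrocyte markers went from at most 93.9 to at least 111 CPM, microglial markers from at most 16.5 to at least 28.2 CPM and oligodendrocyte-lineage markers from at least 44.6 to at most 36.2 CPM, and their part was not tested.

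Mrpl15 (chr1:4776464-4785677), a large-subunit protein with a bacterial counterpart, read 88.0, 87.8 and 88.8 CPM in the inputs and 28.1, 27.9 and 29.3 CPM in the pulldowns. Its log2 fold change was -1.66 ± 0.09 (edgeR adjusted p = 4.6e-12). Mrps6 read 43.6, 49.5 and 46.5 CPM in the inputs and 12.5, 13.0 and 12.5 CPM in the pulldowns, a log2 fold change of -1.90 ± 0.11 (adjusted p = 2.7e-11). The replicates of each group lay close together and far from those of the other. Mrpl20, at 188, 167 and 173 CPM in the inputs and 43.1, 49.9 and 63.8 CPM in the pulldowns, fell by 1.77 on the log2 scale (SE 0.10). Mrps14, a small-subunit protein, and Mrpl34 fell by 1.82 and 1.77 (SE 0.11 for both).

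The 11 genes that were higher in the DHPG pulldown than in its input had CDSs between 567 and 1329 nt. Mrps27 (chr13:99344803-99414978), a pentatricopeptide-repeat protein of the small subunit, read 36.9, 38.7 and 39.7 CPM in the inputs and 71.9, 72.3 and 74.6 CPM in the pulldowns, a log2 fold change of 0.89 ± 0.09 (edgeR adjusted p = 2.1e-08). Mrps2 and Mrps9, small-subunit proteins with bacterial counterparts, were higher in the pulldown by 0.71 ± 0.10 and 0.74 ± 0.11 on the log2 scale (adjusted p = 2.3e-06 and 5.2e-06). Mrps30 and Mrpl37, large-subunit additions, were higher there by 0.60 ± 0.09 and 0.45 ± 0.08. In this experiment Mrps27 and Mrpl15 moved in opposite directions without overlap of input and pulldown in either gene.

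At the median the genes stood where genes of their length did, and single genes stood apart from it. Against their neighbours of equal CDS length, 36 of the 77 genes lay above and 41 below, with a median difference of -0.05. With the length trend removed, 37 genes were lower and 20 higher, where 32.7% and 35.5% of all tested genes were. Mrps35 stood 1.33 and Mrps31 1.32 below their neighbours on the log2 scale, Mrpl15 1.24 below, and Mrpl35 1.52 above. Mrpl35, a large-subunit protein with a bacterial counterpart, was the shortest of the 11 higher genes, with 42.6, 44.4 and 43.7 CPM in the inputs and 63.4, 59.1 and 55.0 CPM in the pulldowns (log2 fold change 0.41 ± 0.09, edgeR adjusted p = 5.7e-04).

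In resting eIF4G2-knockdown neurons, the TurboID-PSD95 pulldown was lower than the input for 44 of the 78 genes and higher for 4, where 23.4% of the 12239 tested genes were lower and 22.1% higher. The median was -0.86 on the log2 scale. Mrpl12 (chr11:120484692-120488434) had the smallest p-value, with 111 and 105 CPM in the inputs and 33.5 and 31.7 CPM in the pulldowns, a log2 fold change of -1.73 ± 0.16 (edgeR adjusted p = 2.2e-09). Mrpl20, Mrpl34, Mrpl17 and Mrpl43 followed, at -1.34 ± 0.15, -1.72 ± 0.21, -1.39 ± 0.18 and -1.24 ± 0.17 on the log2 scale. All 5 are large-subunit proteins, as are 51 of the 78 genes. Small-subunit genes, among them Mrps14, Mrps6 and Mrps22, were lower as well. The 4 higher genes were Mrps9 (0.86 ± 0.23), Mrpl37 (0.69 ± 0.19), Mrps5 (0.58 ± 0.19) and Mrpl3 (0.46 ± 0.16). Mrps9 read 20.4 and 20.9 CPM in the inputs and 34.4 and 42.3 CPM in the pulldowns.

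By length, 23 of 27 genes under 500 nt were lower at rest, against 57.5% of other genes of that length, and 14 of 29 between 500 and 800 nt, against 41.1%. The genes divided evenly about their length neighbours, 39 above and 38 below. With the length trend removed, 11 were lower and 10 higher, where 16.7% of all tested genes were lower and 16.7% higher. Neuronal markers summed to 8615 to 8823 CPM in these inputs and 7387 to 7632 CPM in the pulldowns, and after KCl to 6781 to 6958 and 5867 to 5940 CPM. Oligodendrocyte-lineage markers summed to 173 to 176 and 114 to 137 CPM at rest and to 165 to 179 and 88.2 to 110 CPM after KCl. Microglial markers summed to 55.7 to 59.8 and 74.0 to 91.9 CPM at rest and to 60.9 to 62.5 and 90.1 to 111 CPM after KCl, and astrocyte markers to 676 to 716 and 725 to 930 CPM after KCl. The part of these markers was not tested.

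In depolarized knockdown neurons, the pulldown was lower than its own input for 42 of the 78 genes and higher for 6. Of all tested genes 24.8% were lower and 24% higher. The median was -1.04 on the log2 scale, and 40 genes lay above and 37 below their length neighbours. Mrpl34, with a CDS of 279 nt, read 107 and 123 CPM in the inputs and 18.7 and 19.7 CPM in the pulldowns, a log2 fold change of -2.64 ± 0.22 (edgeR adjusted p = 3.0e-10). Mrpl54, a large-subunit addition, read 62.7 and 74.4 CPM and then 12.6 and 16.8 CPM (-2.29 ± 0.26). Mrpl20, Mrpl12 and Mrpl28 were lower by 1.72, 1.72 and 1.32 on the log2 scale. The 6 higher genes were Mrpl16, Mrps27, Mrpl3, Mrps30, Mrps9 and Mrps2. After removal of the length trend, 15 were lower and 10 higher, where 17.4% and 18.1% of all tested genes were.

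The resting TurboID-PSD95, DHPG and resting knockdown comparisons use separate libraries. In all 3, 36 of the 78 genes were lower, which was 85.7%, 59.0% and 81.8% of the genes lower in each. Over the 11792 genes tested in all 3, 13.4% were lower in each, which was 74.8%, 33.7% and 56.0% of the respective lists. Of the 6 genes higher in the depolarized knockdown pulldown, all were also higher in the DHPG pulldown, and they made up 54.5% of the 11 there. Over all genes tested in both, the shared genes made up 91.7% of those higher in the depolarized knockdown pulldown and 55.1% of those higher in the DHPG pulldown.

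Mrps14, Mrpl21 and Mrps22, chosen after their values were seen, were lower in each of the 7 comparisons, some of which share inputs. They were 3 of the 78 genes (3.85%), where 1.5% of the 11792 genes tested in all were lower in each. Counted on its transcript with the highest count, Mrpl21 was not called in the resting Pan-TurboID and resting knockdown pulldowns (edgeR adjusted p = 0.072 and 0.076). Mrps22 stood at -1.02, -0.82, -0.71, -0.71, -1.13, -0.99 and -1.05 on the log2 scale for TurboID-PSD95 at rest and after KCl, Pan-TurboID at rest and after KCl, DHPG, and knockdown at rest and after KCl. With 1080 nt it is longer than most of the genes, and its length neighbours had medians of -0.10 at rest and -0.10 after DHPG. Mrps14, at 387 nt, had neighbours at -1.08 and -1.54.

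**Figure D4:**
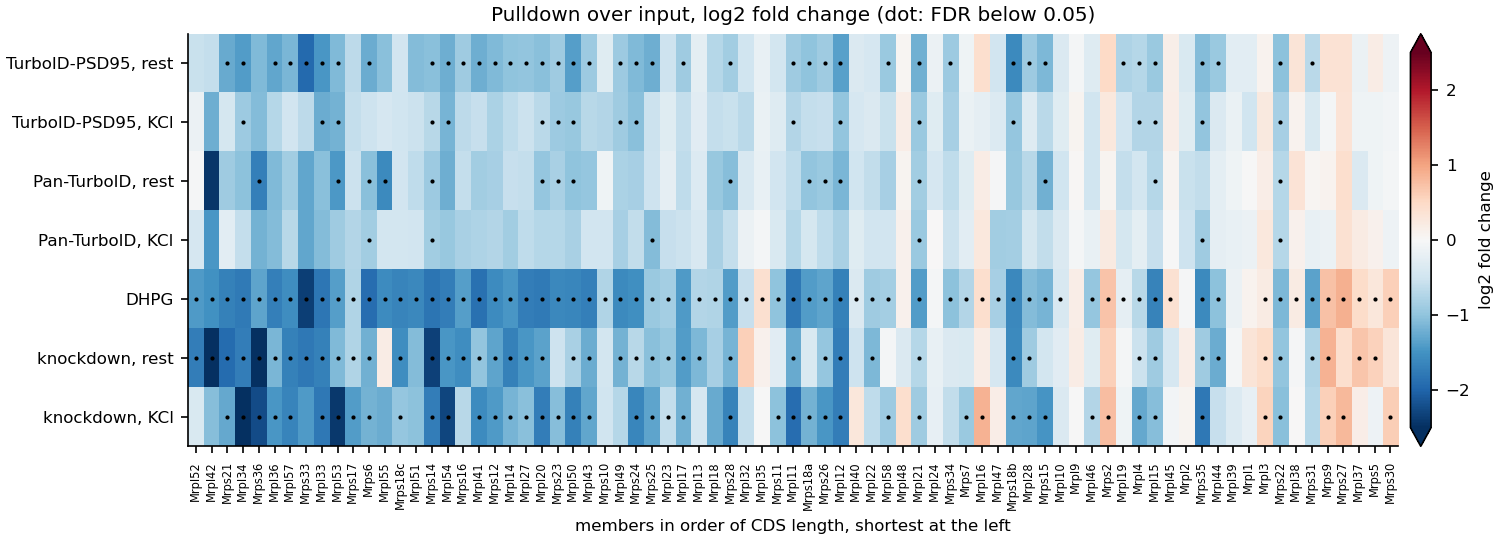
Log2 fold change of pulldown over input (colour, blue below 0 and red above 0) for 77 genes in order of CDS length in 7 comparisons, with a dot where the adjusted p was below 0.05. Blue fills most of the short end in every comparison and the dots are densest after DHPG. At the long end Mrps27 lies above 0 in every comparison, and Mrps9 and Mrps30 do so after DHPG and in both knockdown comparisons.

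The family holds 3 relatives of bacterial S18. Mrps18a occupies the large subunit and the other two the small one. Their resting densities were 140 ± 20.6 CPM per kb for Mrps18a, 39.0 ± 7.31 CPM per kb for Mrps18b and 45.3 ± 13.8 CPM per kb for Mrps18c (SD, n = 6), so Mrps18a stood above both and the others did not differ beyond their SD. In the resting dendritic ratio the log2 fold changes were -1.01 ± 0.23, -1.59 ± 0.32 and -0.48 ± 0.29 (edgeR adjusted p = 0.0026, 0.0015 and 0.22). In the DHPG pulldown all 3 were lower than in its input, by 1.40, 1.62 and 1.65 on the log2 scale. Relative to genes of equal length, Mrps18b then lay 0.92 below its neighbours and Mrps18c 0.10 below.

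Next, depolarized libraries were set against resting ones within each fraction, where KCl and silencing cannot be told apart. In the inputs, 13 of the 78 genes were higher after KCl and none lower, where 6.32% of tested genes were higher. Inputs of both baits entered this fit as separate libraries. Libraries of a condition with the same replicate number deviated together (correlation 0.127 to 0.711), which these p-values do not take into account. The median log2 fold change was 0.32, against -0.01 over all tested genes, and 0.13, 0.37 and 0.48 in replicates 1, 2 and 3. The calls came from 4 of 30 and 4 of 21 large-subunit genes with and without bacterial counterparts and from 3 of 17 and 2 of 9 small-subunit genes. Against length neighbours, 52 of 77 genes lay above and 25 below, by a median of 0.12, and the median of the neighbours' medians was 0.21. Over the same genes r with CDS length was -0.13.

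Mrpl35 (chr6:71816099-71823758) read 30.7, 37.3 and 33.4 CPM in the resting TurboID-PSD95 inputs and 28.9, 31.0 and 30.8 CPM in the resting Pan-TurboID inputs. After KCl it read 77.5, 52.5 and 51.5 CPM and 49.7, 45.2 and 57.0 CPM. All 6 depolarized inputs lay above all 6 resting inputs, with a log2 fold change of 0.76 ± 0.17 (edgeR adjusted p = 0.0023). Mrpl13, a large-subunit protein with a bacterial counterpart, rose by 0.76 ± 0.21 (adjusted p = 0.012), from 19.5 to 31.7 CPM at rest to 32.5 to 62.0 CPM. Mrps10, Mrps18c and Mrps14, all of the small subunit, rose by 0.86 ± 0.24, 0.81 ± 0.23 and 0.63 ± 0.18. Mrpl12 did not pass, at 0.08 ± 0.23 (adjusted p = 0.86). Without replicate 3 none of the 78 genes was called and without replicate 2 there were 4. With the trend on CDS length removed, 5 of the 13 were still called, among them Mrpl13, and Mrps22 was newly called, where 7.97% of all tested genes were higher. Mrpl35, Mrps10, Mrps18c and Mrps14 stood at 0.63, 0.67, 0.56 and 0.36 in that edgeR fit and were not called (adjusted p = 0.082, 0.091, 0.079 and 0.11).

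In the TurboID-PSD95 pulldowns, 6 of the 78 genes were higher after KCl, where 3.32% of tested genes were higher. The median was 0.51 on the log2 scale, but 0.08, 0.78 and 0.42 in replicates 1, 2 and 3. The median of the length neighbours' medians was 0.40. Of 77 genes 52 lay above their neighbours and 25 below, by a median of 0.14. Mrps6 read 27.0, 20.9 and 18.5 CPM at rest and 53.0, 55.1 and 40.3 CPM after KCl, without overlap, a log2 fold change of 1.16 ± 0.24 (edgeR adjusted p = 0.0035). Mrps25, Mrps14 and Mrps18a rose by 1.19 ± 0.29, 0.98 ± 0.27 and 0.85 ± 0.25 (adjusted p = 0.013, 0.027 and 0.040). The replicate block, here by replicate number across conditions, gave 12 genes. The fit without replicate 1 gave 22, and those without replicate 2 and without replicate 3 gave 0. Same-numbered libraries of different conditions did not deviate together at the median (48 pairs, correlation -0.291 to 0.423, median 0). None was called once the length trend was removed, where 4.28% of all tested genes were. Mrps6, Mrps25, Mrps14 and Mrps18a stood there at 0.85, 0.95, 0.60 and 0.57 (edgeR adjusted p = 0.069, 0.058, 0.12 and 0.14). Dlg4 in these depolarized pulldowns ranged from 353 to 5095 CPM between replicates, and neuronal markers summed to 6429 to 7331 CPM there and 7703 to 8474 CPM in the resting ones. The part of either in the result was not tested.

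In the Pan-TurboID pulldowns, 2 of the 78 genes were higher, where 1.87% of tested genes were. They were Mrpl35 (0.86 ± 0.23, edgeR adjusted p = 0.028) and Mrps18a (0.89 ± 0.25, adjusted p = 0.034), and the median was 0.41 on the log2 scale, and -0.0029, 0.32 and 0.66 in replicates 1, 2 and 3. With the length trend removed they stood at 0.78 and 0.68 and neither was called (edgeR adjusted p = 0.22 and 0.067), where 4.08% of all tested genes were. Of the 77 genes 54 lay above their length neighbours and 23 below, by a median of 0.11, and the median of the neighbours' medians was 0.27. The fit without replicate 1 gave 7 genes and those without replicates 2 or 3 gave 0. In all 3 fractions the median estimate lay above 0, and so did the median of the length neighbours' medians. The calls were few, and the genes' median was smallest in replicate 1.

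The KCl response after knockdown used libraries of its own. In knockdown inputs, 15 of the 78 genes were higher, where 8.98% of the tested genes were, and the median was 0.33 on the log2 scale with 52 of 77 genes above their length neighbours. Mrpl34 read 62.7 and 59.2 CPM at rest and 107 and 123 CPM after KCl, a log2 fold change of 0.93 ± 0.18 (edgeR adjusted p = 4.0e-04). Mrps9 read 20.4 and 20.9 CPM and then 39.2 and 38.3 CPM (0.93 ± 0.22, adjusted p = 0.0038). Mrpl28, Mrpl20 and Mrpl12 rose by 0.65, 0.57 and 0.58. The genes called were mostly others than in the unmodified inputs: Mrpl21 and Mrpl35 passed in both, 15.4% of the 13 and 13.3% of the 15, where over all genes 376 were shared, 46.9% and 34.2% of the respective lists. Every one of these genes called in either fit had a positive estimate in both, so the lists differed in the threshold passed and not in direction. Without any 1 of the 4 input libraries 2 to 9 genes were called, fewest without resting input replicate 1, and without a pulldown library 16 or 17. Removing the length trend left 4 of the 15 (Mrpl34, Mrpl28, Mrps9 and Mrpl4), where 8.45% of all tested genes were higher. Mrpl20 and Mrpl12 stood there at 0.29 and 0.40 and were not called (edgeR adjusted p = 0.16 and 0.051). Between these resting and depolarized inputs, neuronal markers summed to 8615 to 8823 and then 6781 to 6958 CPM, and astrocyte markers to 507 to 529 and then 676 to 716 CPM, and their part in the result was not tested.

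In knockdown pulldowns, 8 of the 78 genes were higher after KCl and 3 lower, where 10.2% of tested genes were higher and 12% lower. Mrpl12, Mrpl23, Mrpl13, Mrpl52 and Mrps18c rose, by 0.60 to 1.32 on the log2 scale. Mrpl52 moved from 1.28 to 0.39 (edgeR adjusted p = 0.29) when counted on the transcript with the highest count. With the length trend removed Mrpl52 stood at 1.09 and was not called (adjusted p = 0.059). Mrpl37 fell by 0.69 (SE 0.21, edgeR adjusted p = 0.017), from 70.6 and 104 CPM to 56.8 and 51.7 CPM, and Mrpl53 and Mrps15 fell by 1.11 and 0.72. Without resting pulldown replicate 2 there were 3 genes, without any 1 of the input libraries 6 or 7, and without the other pulldown libraries 8 to 15. Between the resting and depolarized knockdown pulldowns, neuronal markers summed to 7387 to 7632 and then 5867 to 5940 CPM, astrocyte markers to 486 to 583 and then 725 to 930 CPM, and oligodendrocyte-lineage markers to 114 to 137 and then 88.2 to 110 CPM. Their part in the result was not tested.

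**Figure D5:**
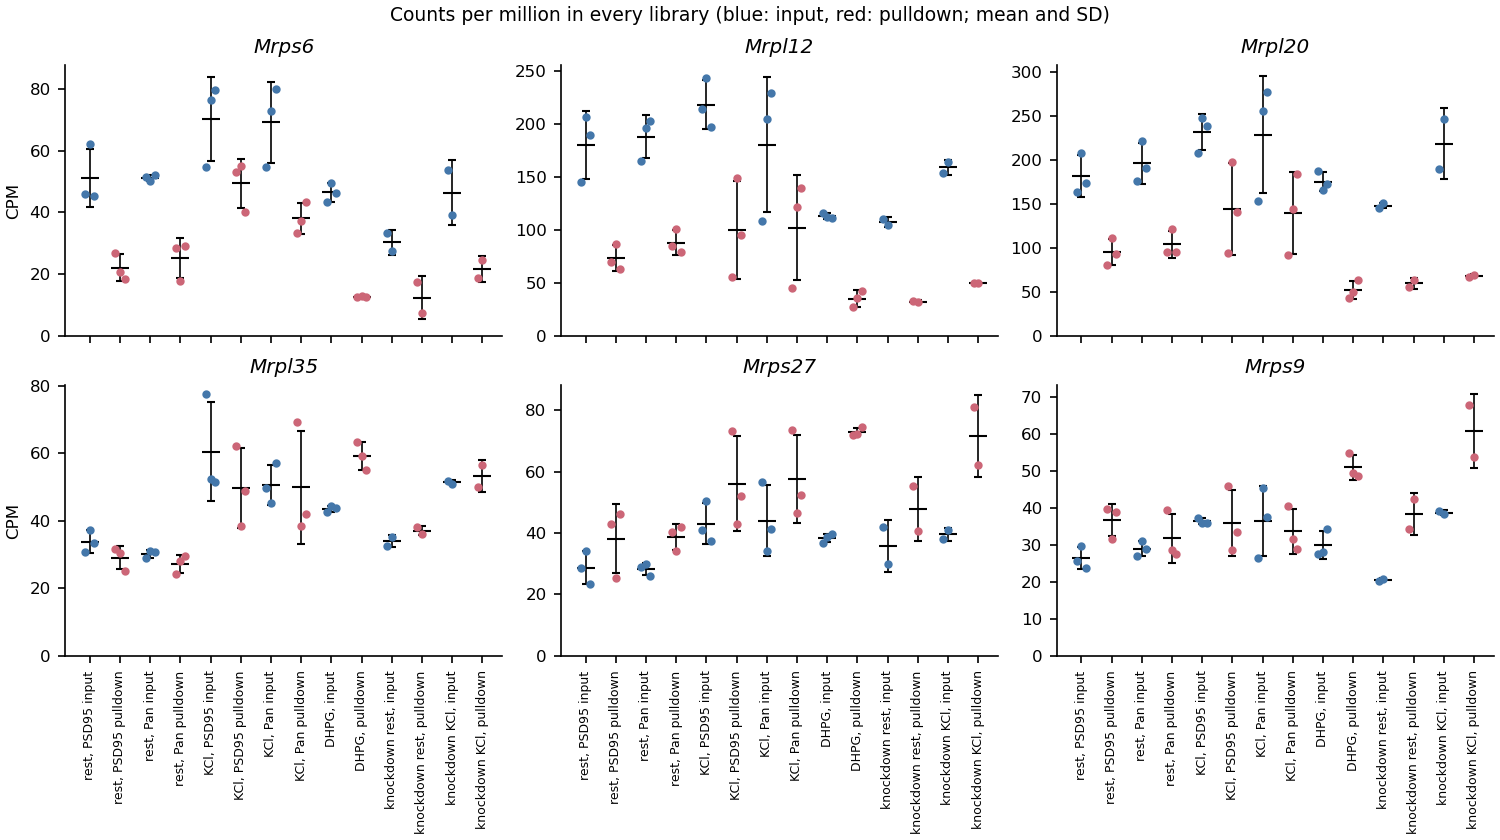
CPM of Mrps6, Mrpl12, Mrpl20, Mrpl35, Mrps27 and Mrps9 in all 38 libraries, with inputs in blue, pulldowns in red, and the mean and SD of each group as black bars. The means of Mrps6, Mrpl12 and Mrpl20 lie lower in pulldowns than in inputs. Mrps27 and Mrps9 lie higher in the DHPG and both knockdown pulldowns than in their inputs, and Mrpl35 rises after KCl in the inputs.

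Comparisons across experiments followed, in which experiment and treatment cannot be told apart. DHPG inputs against resting TurboID-PSD95 inputs gave 5 of the 78 genes higher and 11 lower, where 16.3% and 16.5% of 12803 tested genes were, with a median of -0.09 on the log2 scale. Mrpl16 was higher (58.1, 57.2 and 56.8 CPM against 31.5, 33.0 and 31.2 CPM, log2 fold change 0.81 ± 0.14, edgeR adjusted p = 4.7e-04) and Mrpl12 lower (117, 113 and 111 CPM against 145, 207 and 190 CPM, -0.70 ± 0.16, adjusted p = 0.0035). Leaving out replicate numbers gave 4 to 10 genes, fewest without replicate 2. DHPG pulldowns against resting pulldowns gave 11 genes higher and 37 lower, where 21.7% and 26% of tested genes were. Without replicate 2 there were 28. Mrpl15 had the smallest p-value among the lower ones (-1.10 ± 0.12, adjusted p = 2.7e-06) and Mrpl35 among the higher ones (0.94 ± 0.14, adjusted p = 4.8e-05). Astrocyte markers summed to 93.0 to 120 CPM in the DHPG libraries and to 301 to 936 CPM in the resting TurboID-PSD95 libraries. Oligodendrocyte-lineage markers summed to 27.4 to 48.8 CPM against 130 to 551 CPM in these groups, and neuronal markers to 10500 to 10770 CPM against 7703 to 8739 CPM. Microglial markers summed to 55.7 to 111 CPM in the knockdown libraries and 14.9 to 45.1 CPM in those resting libraries. Their part in these differences was not tested.

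Resting knockdown inputs against resting TurboID-PSD95 inputs gave none higher and 1 lower, where 2.01% of 13197 tested genes were lower. That gene was Mrps36 (6.01 and 5.30 CPM against 13.0, 18.7 and 17.2 CPM, log2 fold change -1.52 ± 0.43, edgeR adjusted p = 0.048), the dehydrogenase component and no part of the ribosome, and it was not called when any replicate number was left out. Over the 78 genes the median was -0.27 on the log2 scale, and 49 of 77 lay below their length neighbours. In resting knockdown pulldowns against resting pulldowns, 1 gene was higher and 6 lower, where 4.18% and 4.97% of tested genes were. Mrpl37 was the higher one (0.96 ± 0.23, adjusted p = 0.0093), and Mrps36, Mrps14, Mrpl12, Mrpl17 and Mrps26 were among the lower ones. Mrps26 moved from -0.86 to -0.67 on the log2 scale with the length trend removed and was not called (edgeR adjusted p = 0.093), while the other 5 named were. Without replicate 1 there were 3 and without replicate 2 none.

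Footprints in 5′ UTRs were counted separately. Of the counts on the CDSs and 5′ UTRs of these transcripts, 18.0% to 23.2% lay in the 5′ UTR in the 6 resting inputs and 8.32% to 15.4% in the 6 resting pulldowns. Over all genes the shares were 16.6% to 22.5% and 5.71% to 10.3%. After KCl the 5′ UTR counts in the TurboID-PSD95 pulldowns changed for 0 of the 73 genes tested by edgeR, where 0.285% of the 10158 tested genes changed, and for 0 by the likelihood ratio test and 1 by DESeq2. At an unadjusted p under 0.05, 7 of the 73 were higher and 1 lower, where 13.6% of all tested genes changed. Mrpl24, a large-subunit protein with a bacterial counterpart, had the smallest p-value, with a log2 fold change of 1.92 ± 0.62 (edgeR adjusted p = 0.19). With the replicate block its estimate was 1.86 (adjusted p = 0.044), without replicate 1 it was 2.48 (adjusted p = 0.015), and with library sizes taken from the 5′ UTR counts it was 1.02 (adjusted p = 0.44). The median was 0.77 over the genes and 0.65 over all tested genes. The libraries scattered. In replicates 1, 2 and 3 the 5′ UTR share of these genes was 8.32%, 15.4% and 9.76% in the resting TurboID-PSD95 pulldowns. After KCl it was 6.78%, 16.7% and 11.3%, so replicate 1 lay below every resting one. Over all genes the shares were 5.71%, 10.3% and 6.54%, and then 5.31%, 18.7% and 10.2%.

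The other genes of mitochondrial translation were taken from lists. These held 5 mitochondrial ribosome proteins with other symbols and 13 translation factors (12 tested). Further lists held 23 genes listed for ribosome assembly and rRNA modification (21 tested) and the 13 mitochondrially encoded proteins. Of the ribosome proteins under other symbols, 3 of 5 were lower and none higher in the resting dendritic ratio, and 4 of 5 were lower after DHPG, where 16.4% and 39.3% of all tested genes were lower. Chchd1 fell by 1.03 ± 0.28 at rest and 1.75 ± 0.17 after DHPG on the log2 scale, and Aurkaip1 by 0.75 ± 0.19 and 1.13 ± 0.09. Gadd45gip1 was the 1 of the 5 that was higher after KCl in the inputs (0.56 ± 0.16), in the TurboID-PSD95 pulldowns (1.13 ± 0.24) and in the Pan-TurboID pulldowns (1.01 ± 0.23). Of all tested genes 6.32%, 3.32% and 1.87% were higher there.

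Of the 12 translation factors, 2 were higher and 3 lower in the resting dendritic ratio, where 1916 of the 13019 tested genes were higher and 16.4% lower. After DHPG 5 were higher and 4 lower, where 40.5% and 39.3% of tested genes were. Gfm1, a mitochondrial elongation factor, was higher by 0.76 ± 0.20 at rest and 1.16 ± 0.08 after DHPG on the log2 scale, and Gfm2, which acts in ribosome recycling, by 1.36 ± 0.11 after DHPG. Tsfm, the exchange factor of the elongation factor Tufm, was lower by 1.26 ± 0.27 at rest. Of the genes on the assembly list, 5 were higher and 7 lower after DHPG, with Dhx30, an RNA helicase, at 0.98 ± 0.06. Bola1 stood at -1.65 ± 0.14, but Bola1 and Metap1d are on that list without being established assembly or rRNA-modification factors.

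The mitochondrial ribosome itself makes 13 proteins. Their median log2 fold change was 0.94 in the resting dendritic ratio (6 higher, none lower), 1.22 after DHPG (11 higher, 1 lower) and 2.01 in the resting knockdown pulldown (13 higher), beside -0.89, -1.24 and -0.86 for the mitochondrial ribosomal protein genes. Over all tested genes 1916 of 13019, 40.5% and 22.1% were higher in these comparisons. After KCl in knockdown inputs 13 of 13 were higher (median 1.39), and in unmodified inputs 2 of 13 (median 0.85), where 8.98% and 6.32% of all tested genes were higher. In the depolarized dendritic ratio their median was -0.01. Translation of these 13 takes place inside the organelle, unlike that of the mitochondrial ribosomal protein genes. What brings their footprints into a streptavidin pulldown was not tested, so these values do not measure dendritic translation.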

How the data were processed

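Ribosome footprints of mouse cortical neurons were measured in 38 libraries. Per the study's methods, the authors trimmed reads, removed molecular identifiers, kept reads over 20 nt, aligned them to mm10 with Rsubread and counted them per transcript region with plastid. The deposited values are raw counts per transcript for the CDS and the 5′ UTR, not normalized. Of 67238 coding transcripts, 66664 (99.1%) matched GENCODE M21, and each of 22401 genes was represented by its longest transcript. Promoter windows are those of RefSeq (GRCm38.p6).

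Counts were filtered with edgeR's default filter, scaled by TMM and tested with edgeR 4.0.16 (quasi-likelihood F test, R 4.3.3), separately for the KCl, DHPG and knockdown experiments and for the comparisons across them, with Benjamini-Hochberg adjustment over all genes at 0.05. CPM values come from TMM scaling over all 38 libraries, whereas fold changes come from the fits. Total counts per library set the precision, and the spread is that between libraries. Only the resting dendritic comparison of the KCl fit was tried on simulated data, and the other fits and comparisons were not. Within each condition of the KCl experiment, libraries with the same replicate number deviated together (36 pairs, correlation 0.127 to 0.711), so these numbers pair the libraries of a condition. Between conditions they did not at the median (48 pairs, -0.291 to 0.423, median 0). The block for depolarized against resting libraries of a fraction nevertheless used the number across conditions. Alternatives were edgeR's likelihood ratio test, DESeq2 1.42.0, no count filter, the transcript with the highest count, removal of the trend on CDS length (spline with 4 degrees of freedom), the replicate block and leaving out replicates. Named genes were the 5 with the smallest p-values per direction among those called and changed the same way in every replicate, the 5 highest and 3 lowest levels, and 6 picked for their role. Genes named for their distance from genes of equal length or for recurring across comparisons were chosen after their values were seen. The genes and lists were chosen with earlier results of these data known.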

Additional observations from a re-analysis of the deposited data

How the results depend on the processing

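Counts of genes called moved with CDS length, the replicates, the pairing and the choice of test, and the cause was not tested except where the setting itself removes samples. With the length trend removed, the counts were 11 (main 42) in the resting dendritic ratio, 3 in the depolarized one, 0 in both Pan-TurboID pulldowns, 6 for KCl in inputs, 0 for KCl in both pulldowns, 21 and 25 in the resting and depolarized knockdown pulldowns, 4 for KCl in knockdown inputs and 0 for knockdown inputs against none. Mrps18c in the depolarized knockdown pulldown turned from -0.97 to 0.22 on the log2 scale there (edgeR adjusted p = 0.69). DESeq2 gave 26 and 18 in the resting and depolarized Pan-TurboID pulldowns, 15 and 4 for KCl in the TurboID-PSD95 and Pan-TurboID pulldowns, 3 for knockdown inputs against none and 1 for the 5′ UTR. The likelihood ratio test gave 10 in the depolarized Pan-TurboID pulldown, 13 for KCl in the TurboID-PSD95 pulldowns and 17 for KCl in knockdown pulldowns. Without a count filter 8 were called for KCl in inputs and 0 for knockdown inputs against none. The replicate block gave 36 in the depolarized dendritic ratio, 38 and 34 in the resting and depolarized Pan-TurboID pulldowns, 12 for KCl in the TurboID-PSD95 pulldowns and 1 for the 5′ UTR, and moved no other count by over 1.5 times. In the DHPG and knockdown experiments samples shared only a number (correlations -0.229 to 0.066 and 0.006 to 0.027), and the block gave 69 in the DHPG pulldown.

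Leaving out replicates gave 0 to 42 genes in the resting dendritic ratio, 0 to 17 in the depolarized one, 0 to 15 in the resting and 0 to 0 in the depolarized Pan-TurboID pulldown, 0 to 0 for the difference between baits and for the KCl dendritic difference, 0 to 16 for KCl in inputs, 0 to 22 and 0 to 7 for KCl in the TurboID-PSD95 and Pan-TurboID pulldowns, 68 to 70 in the DHPG pulldown, 4 to 10 and 28 to 43 for DHPG inputs and pulldowns against rest, 36 to 50 and 40 to 53 in the resting and depolarized knockdown pulldowns, 2 to 17 and 3 to 15 for KCl in knockdown inputs and pulldowns, 0 to 0 and 0 to 5 for knockdown inputs and pulldowns against none, and 0 to 3 for the 5′ UTR. Of the values of single named genes under all alternatives, 1163 kept direction and side of the threshold, 230 lost the call, 3 gained it and 1 turned. With windows of 5% and 20% of CDS length the comparison with genes of equal length was counted as the same in 36 of 36 cases. In the resting knockdown pulldown, however, the small median difference crossed 0, from 0.03 with the 10% window to -0.02 with the 20% window (38 genes above and 39 below). Low counts limit Mrpl42 and Mrpl51 most, with medians of 9 and 18 counts over the libraries.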
